A study of Rattus norvegicus with 18 samples.

Results

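Here 4 genes of the heart muscle's contractile and structural scaffold were followed through a rat model of doxorubicin heart damage. They are Tnnt2 (ENSRNOG00000033734, cardiac troponin T), Tnni3 (ENSRNOG00000018250, cardiac troponin I), Actc1 (ENSRNOG00000008536, cardiac alpha-actin) and Des (ENSRNOG00000019810, desmin). They were chosen by name, each to be kept only if it averaged at least 100 TPM (transcripts per 1000000: reads per unit of gene length, expressed as a share of the library) in the saline hearts. All 4 met this, of 32545 identifiers in the table. The names of the 4 came with their identifiers in the choice of genes, since the deposited table holds identifiers only.

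The series asked how AICAR acts on rat hearts exposed to doxorubicin. Male Wistar rats (an outbred laboratory strain) of about 250 g received 5 weekly intravenous injections, and their hearts were then frozen and polyadenylated RNA was sequenced, each of 18 animals as 1 library. The saline group (6 animals, numbered 51 to 56) received intravenous saline without doxorubicin. DOX+saline (6 animals, 1 to 6) received doxorubicin at 3 mg/kg per week with subcutaneous saline, and DOX+AICAR (6 animals, 7 to 12) received the same doxorubicin with subcutaneous AICAR at 0.5 g/kg. The series' text names no group given AICAR without doxorubicin, and the animals' age is not given in the sources used here. Doxorubicin is an anthracycline used in chemotherapy whose known harm to the heart limits its dose. AICAR enters cells as a nucleoside and, once phosphorylated, switches on the energy sensor AMPK by mimicking AMP. The saline animals carry another number series than the doxorubicin animals, so that a difference between cohorts and the effect of doxorubicin cannot be told apart.

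In the sarcomere, the contractile unit of muscle, the thin filament is a polymer of actin that carries tropomyosin and the troponin complex. Cardiac troponin T anchors this complex to tropomyosin, and cardiac troponin I holds actin back from myosin until calcium binds troponin C. In the adult heart both are made almost only by cardiomyocytes, which is why the proteins are measured in blood as signs of heart muscle injury, including after anthracyclines. Desmin is the muscle's intermediate filament protein. It links neighbouring Z discs to each other, to the cell membrane and to mitochondria, and it is also made by smooth muscle cells.

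The stretches before the start sites of the 4 genes are shown as a description, and any link to changes in level was not tested. They are the 250 bases before the first RefSeq start of each gene on the GRCr8 assembly, another build than the one the reads were aligned to. Capitals mark matches to GATA on either strand (TATC on the printed strand, letters that GATA factors can bind) and to CATTCC (M-CAT, bound by TEAD factors).
Tnnt2, chr13:49818873-49819122, plus strand: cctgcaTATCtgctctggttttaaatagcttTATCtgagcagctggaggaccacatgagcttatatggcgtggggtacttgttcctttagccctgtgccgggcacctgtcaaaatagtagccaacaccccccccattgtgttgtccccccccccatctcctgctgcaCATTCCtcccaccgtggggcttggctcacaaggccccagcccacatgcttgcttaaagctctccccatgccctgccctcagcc
Tnni3, chr1:78342321-78342570, plus strand: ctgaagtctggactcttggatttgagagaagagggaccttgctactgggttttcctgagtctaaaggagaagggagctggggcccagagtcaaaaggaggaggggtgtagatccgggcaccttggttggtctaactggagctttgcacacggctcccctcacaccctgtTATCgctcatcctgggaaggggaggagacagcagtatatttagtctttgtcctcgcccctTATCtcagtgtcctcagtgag
Actc1, chr3:121271828-121272077, minus strand: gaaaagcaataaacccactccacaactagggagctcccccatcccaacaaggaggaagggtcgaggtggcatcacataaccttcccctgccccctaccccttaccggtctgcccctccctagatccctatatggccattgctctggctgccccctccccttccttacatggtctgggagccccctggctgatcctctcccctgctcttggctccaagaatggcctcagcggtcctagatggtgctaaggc
Des, chr9:84299376-84299625, plus strand: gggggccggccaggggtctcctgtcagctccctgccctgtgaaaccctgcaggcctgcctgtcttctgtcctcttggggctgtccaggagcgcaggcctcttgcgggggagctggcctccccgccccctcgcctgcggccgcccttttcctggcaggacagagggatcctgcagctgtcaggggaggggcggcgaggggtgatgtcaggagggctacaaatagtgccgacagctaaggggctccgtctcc

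Both strands were searched from 250 bases before to 50 after the start for these motifs and for the TATA box, spelled TATAAA. The E box, spelled CANNTG, the CArG box of serum response factor and the MEF2 site were searched as well. The stretches shown for Tnnt2 and Tnni3 hold 2 GATA matches each, at -244 and -219 in Tnnt2 and at -81 and -21 in Tnni3. No GATA match was found in Actc1. Of all 33469 rat start windows of 300 bases, 60.5% hold at least 1 GATA match, and the share with 2 was not counted. M-CAT letters were found in Tnnt2 only among the 4, at -83, and in 14.2% of all windows. Actc1 had a CArG box, which 1.64% of windows hold, between bases 3 and 12 after its annotated start and so outside the stretch shown. Des had 1 E box at -79 and a GATA match 9 bases after its start, and Tnnt2 had 4 E boxes (72.1% of windows hold at least 1). The TATA box letters (14.2% of windows) and the MEF2 site (0.565%) were found in none of the 4. RefSeq lists another start of Tnnt2, which is not shown. These are matches of letters, and binding was not measured.

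Libraries held 20.57 to 31.32 M reads (M, 1000000) assigned to genes, recovered from the TPM values. The 4 genes were covered by 27459 to 156602 reads per library, so that counting error was at most 0.603% of a value and the spread between animals was far larger. Counting error is only part of the technical error, since reads carry no molecular identifiers. DOX+saline animals 1 and 6 were the most alike of the 45 pairs of libraries within groups. Their reads differed by a median chi-square of 0.612 per gene, where counting noise alone gives 0.455 and the next closest DOX+saline pair had 3.36. They differed in Actc1 by more than counting error (6397 and 6800 TPM) but 2 libraries of 1 RNA would also carry technical error, so whether they come from 1 animal or 1 RNA sample was not settled. If they do, DOX+saline holds 5 animals and not 6. They were kept as 2 samples as labelled, with results given also with the pair averaged into 1 sample or left out.

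The 4 transcripts were among the most abundant of the heart. By the mean over all 18 libraries Actc1 ranked 9, Tnnt2 10, Tnni3 21 and Des 36 of all genes. TPM is per gene length, so levels were compared between the genes, given the lengths used (recovered as 802 bases for Tnni3 to 2176 for Des). How those lengths were set is not given in the sources used here. In saline hearts Actc1 averaged 7178 ± 390 TPM, Tnnt2 6746 ± 550 TPM, Tnni3 3954 ± 462 TPM and Des 2017 ± 60.8 TPM (SD, n = 6). The order was Actc1, Tnnt2, Tnni3 and Des in 18 of 18 libraries. The neighbours Actc1 and Tnnt2 lay within their spread of each other, with Actc1 between 1.005 and 1.221 times Tnnt2. Tnnt2 was 1.40 to 2.11 times Tnni3. Tnni3 was 1.09 to 2.36 times Des. The 4 genes summed to 1.99 ± 0.111% of all TPM in the saline group, 1.77 ± 0.0748% with doxorubicin and saline and 1.80 ± 0.0884% with doxorubicin and AICAR (SD, n = 6). Within this sum the share of Tnni3 averaged 19.9%, 17.4% and 16.7% in these groups, and that of Des 10.2%, 12.2% and 13.3%. Markers of other heart cell types were not analysed here, because the file gives identifiers without names. In whole heart RNA, fewer cardiomyocytes and less RNA per cardiomyocyte cannot be told apart.

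**Figure D1:**
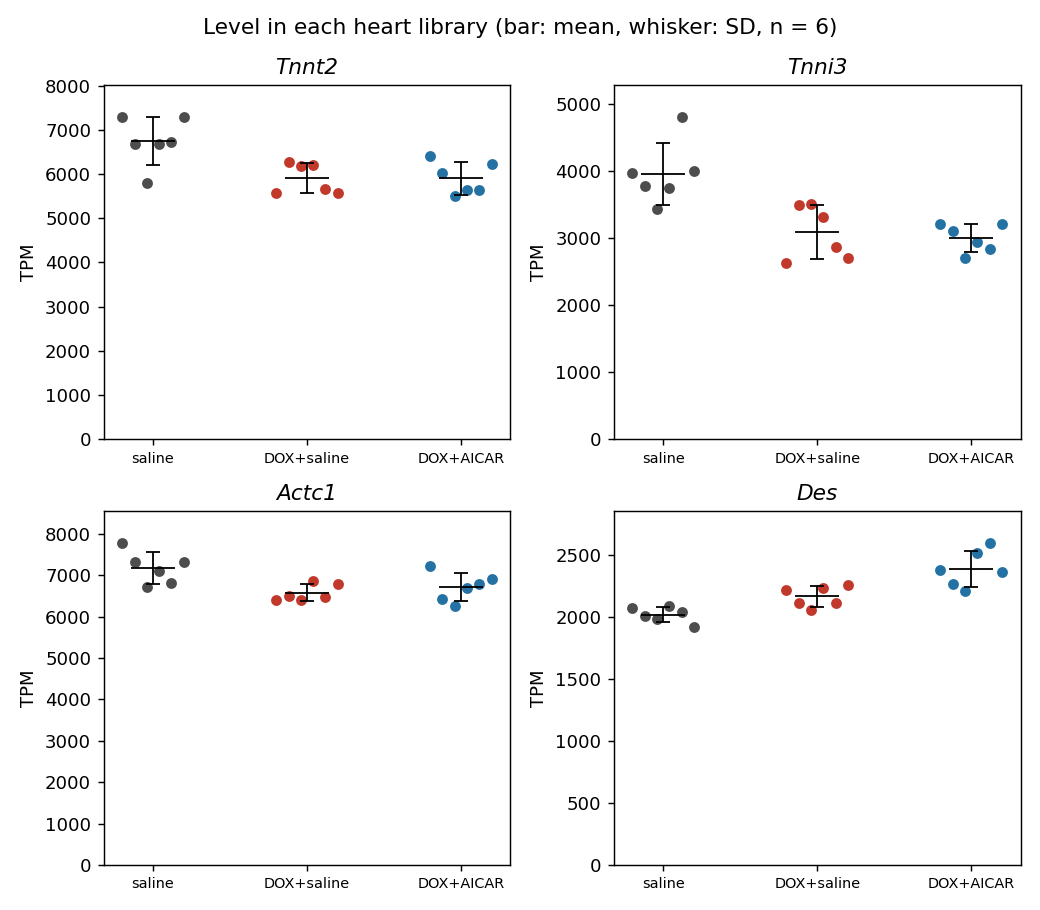
TPM of the 4 genes in each of 18 heart libraries by group; points are animals, bars the mean and whiskers the SD (n = 6), each y axis from 0. The 6 DOX+AICAR points of Tnni3 lie below every saline point, and those of Des above every saline point.

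Doxorubicin given with subcutaneous saline was compared with intravenous saline through DOX+saline against saline. Both troponin genes and cardiac actin were lower, cardiac troponin I the most by estimate, and desmin was slightly higher. In percent of the saline level, Tnni3 fell by 22.1%, Tnnt2 fell by 12.2%, Actc1 fell by 8.30% and Des rose by 7.35%. Of the 4 genes, 3 were lower and 1 was higher at an adjusted p below 0.05 in limma, which fits each gene's group means on log2(TPM + 1) and steadies its estimate of spread with that of the other genes (Benjamini-Hochberg adjustment over all genes tested). Of all 14732 genes tested 58.0% were called, 20.0% lower and 38.0% higher, so calls were common. Among the 105 genes with a mean of at least 1000 TPM, 63.8% were lower and 20.0% higher. The 2 groups overlapped in each of the 4 genes, where they did not overlap in 32.2% of all genes. The median log2 change of the 4 genes was -0.16, beside 0.10 for all genes tested.

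Tnni3, the inhibitory subunit, had the largest estimated fall. Its ratios to Tnnt2 and Actc1, described below, missed the threshold in DOX+saline on TPM as deposited. Its lowest, median and highest values were 3439, 3871 and 4803 TPM in saline and 2633, 3089 and 3512 TPM in DOX+saline. All 6 DOX+saline animals lay below the saline mean and 4 of 6 below the lowest saline animal, with animals 2 and 3 (3493 and 3512 TPM) just inside the saline range. Its log2 change was -0.36 (SE 0.09, limma adjusted p = 0.00161), a fold of 0.779. Over 29 alternative settings it stayed between -0.48 and -0.26, with adjusted p from 5.29e-07 to 0.0167. Of all genes tested, 10.7% had a lower log2 change.

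Tnnt2, the tropomyosin-binding subunit, fell less on the log2 scale. The lowest, median and highest values were 5789, 6713 and 7289 TPM in saline and 5565, 5923 and 6283 TPM in DOX+saline. All 6 DOX+saline animals were below the saline mean, and 3 of 6 below saline animal 53, the lowest and most deeply sequenced saline library (31.32 M reads). On the log2 scale it changed by -0.19 (SE 0.06, limma adjusted p = 0.0108), and by -0.31 with median-of-ratios factors, a scaling by the typical gene instead of the total. The call was lost with quantile normalization (log2 change -0.09, adjusted p = 0.117), without a filter on low values (adjusted p = 0.0582) and with animals 1 and 6 left out (log2 change -0.15, adjusted p = 0.0688), and held with that pair averaged (adjusted p = 0.0263).

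Actc1, the actin of the thin filament itself, averaged 6577 ± 204 TPM in DOX+saline against 7178 ± 390 TPM in saline (SD, n = 6). The lowest, median and highest values were 6707, 7213 and 7785 TPM in saline and 6397, 6494 and 6866 TPM in DOX+saline. In DOX+saline 4 of 6 animals lay below the lowest saline animal. A log2 change of -0.12 was called (SE 0.04, limma adjusted p = 0.0202), and it was -0.25 with median-of-ratios factors. Its direction turned with quantile normalization (log2 change 0.10, adjusted p = 0.0696), which sets values by rank. Actc1 held rank 9 in all 6 saline libraries and ranks 5 to 9 in DOX+saline, while its TPM was lower. The call was also lost without saline animal 51 (adjusted p = 0.0513) and without a filter on low values (adjusted p = 0.152).

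Des rose, on a change that depended on the scaling. Its lowest, median and highest values were 1919, 2022 and 2084 TPM in saline and 2055, 2167 and 2260 TPM in DOX+saline. All 6 DOX+saline animals lay above the saline mean and 5 of 6 above the highest saline animal. Its log2 change was 0.10 (SE 0.04, limma adjusted p = 0.0397), equal to the median of all genes tested, and 49.9% of genes had a lower one. With median-of-ratios factors, which move the median of all genes by -0.11, it was -0.02 (adjusted p = 0.749), and with quantile normalization, which moves it by -0.16, it was 0.17. The call was lost in 7 of 18 fits that leave out 1 animal (without saline 52, 53, 55 or 56, or DOX+saline 1, 4 or 6), with adjusted p up to 0.0889. It was lost with animals 1 and 6 averaged (0.0788) or left out (0.164).

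**Figure D2:**
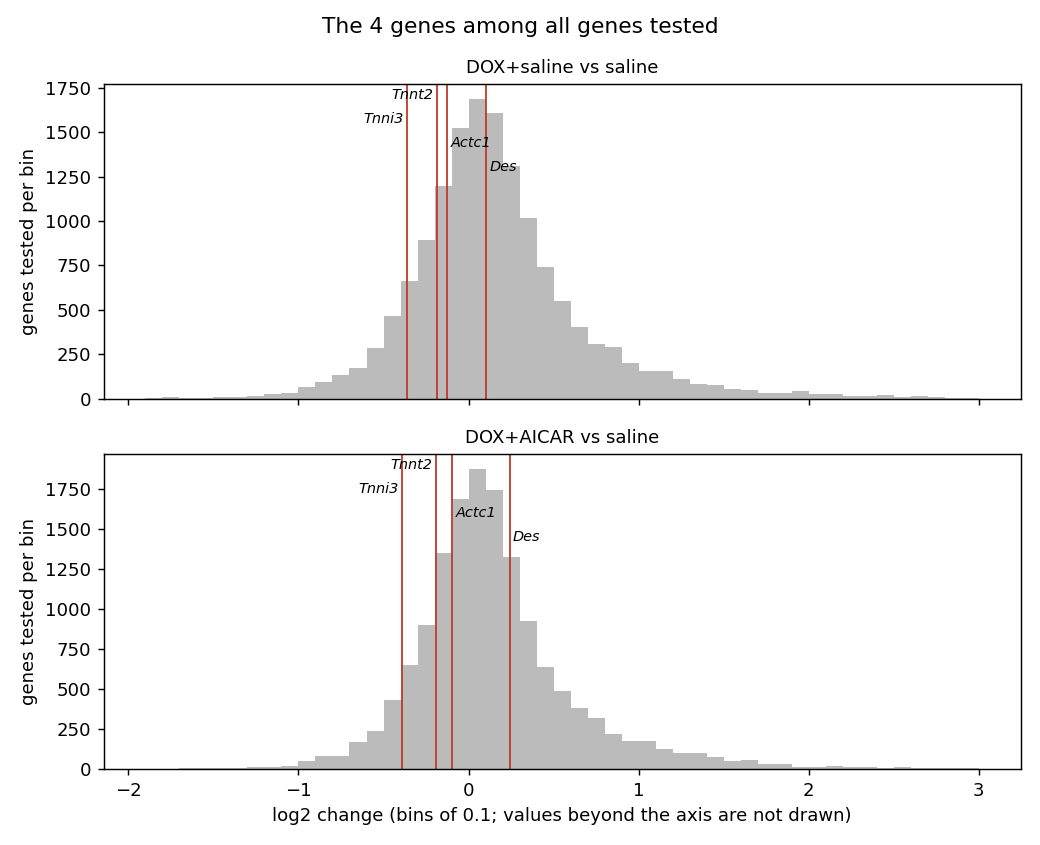
Number of tested genes by log2 change of TPM + 1 in bins of 0.1, for DOX+saline (top) and DOX+AICAR (bottom) against saline; vertical lines mark the 4 genes. Tnni3, Tnnt2 and Actc1 lie left of the median of all genes (0.10 in the upper panel, 0.09 in the lower); Des lies at that median in the upper panel and right of it, at 0.24, in the lower.

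Rats given both drugs were compared with saline rats through DOX+AICAR against saline. Both troponin genes were again lower and desmin was higher, while cardiac actin did not pass the threshold. Of the 4 genes 2 were lower, 1 was higher and 1 was not called, where 53.3% of all genes were called, 18.4% lower and 34.8% higher. Of genes with a mean of at least 1000 TPM, 62.9% were lower and 21.9% higher. The median log2 change of the 4 was -0.14, beside 0.09 for all genes. This comparison and the previous one share the saline libraries.

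Tnni3 ranged from 2706 to 3213 TPM in DOX+AICAR with a median of 3021 TPM, entirely below the saline range of 3439 to 4803 TPM. Groups did not overlap in this direction for 11.6% of all genes tested. Its log2 change was -0.39 (SE 0.09, limma adjusted p = 0.000875), a fold of 0.762. It was called in 27 of 27 alternatives, between -0.51 and -0.34. Tnnt2 ranged from 5494 to 6412 TPM with a median of 5834 TPM, overlapping the saline range. Its log2 change was -0.19 (SE 0.06, limma adjusted p = 0.0112) and -0.30 with median-of-ratios factors, and the call was lost with quantile normalization (-0.07, adjusted p = 0.263) and without a filter on low values (adjusted p = 0.0634).

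Actc1 ranged from 6247 to 7216 TPM with a median of 6741 TPM, and 3 of 6 animals lay within the saline range. Its log2 change of -0.10 had a 95% interval of -0.187 to -0.004 and a limma adjusted p of 0.0726. The call depended on the setting: it passed with median-of-ratios factors (-0.21, adjusted p = 0.00777), array weights (libraries weighted by how well the model fits them), voom on recovered reads (adjusted p = 0.0491), a filter at 5 TPM (adjusted p just below 0.05), or without saline animal 53 or DOX+AICAR animal 7, and it passed in the other direction with quantile normalization (0.13, adjusted p = 0.0195). Des ranged from 2205 to 2596 TPM with a median of 2370 TPM, entirely above the saline range, as 22.9% of all genes were. The log2 change was 0.24 (SE 0.04, limma adjusted p = 9.48e-05), a rise of 18.2%. The call on Des held in 27 of 27 alternatives, from 0.13 with median-of-ratios factors to 0.28 with quantile normalization.

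**Figure D3:**
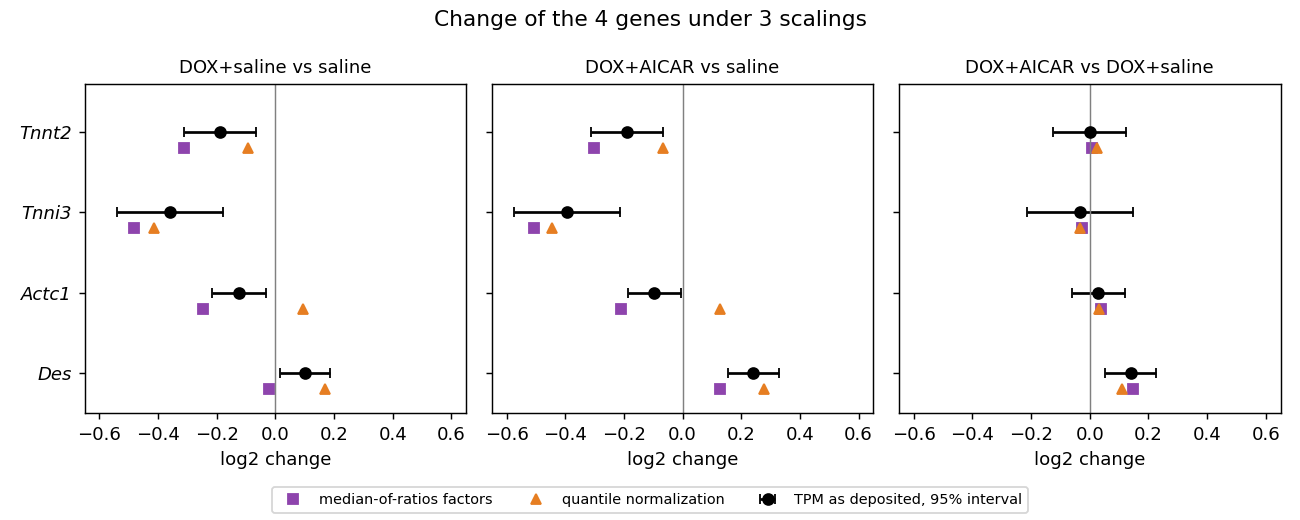
Log2 change of each gene in the 3 comparisons; black points are TPM as deposited with the 95% interval of the limma fit, squares use median-of-ratios factors and triangles quantile normalization. Tnni3 stays left of 0 and Des right of 0 against saline, apart from Des at -0.02 with median-of-ratios factors in DOX+saline; Actc1 changes side with quantile normalization.

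To ask what AICAR added, DOX+AICAR was compared with DOX+saline. The troponin and actin genes differed little between these groups, and desmin was higher on average without passing the threshold. None of the 4 genes was called (limma). Of all 14732 genes 1.33% were called. The groups overlapped in each of the 4 genes and did not overlap in 1.51% of all genes. At an unadjusted p below 0.05, 1 of the 4 genes passed, Des, as did 17.6% of all genes. The log2 change of Tnnt2 was -0.001 (95% interval -0.125 to 0.122), that of Tnni3 -0.03 (-0.213 to 0.146) and that of Actc1 0.03 (-0.062 to 0.121). The intervals include differences in either direction, so the data do not show that the groups were equal. The lowest, median and highest Des values were 2055, 2167 and 2260 TPM in DOX+saline and 2205, 2370 and 2596 TPM in DOX+AICAR. The groups overlapped through DOX+AICAR animal 9, and the other 5 animals lay above the highest DOX+saline animal. The log2 change of Des was 0.14 (SE 0.04), a rise of 10.1%. Its limma p was 0.00326 unadjusted and 0.0902 adjusted. Over 29 alternatives the change was 0.11 to 0.16 and the adjusted p 0.0638 to 0.212.

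Whether the 4 genes changed in step was asked from their ratios within each library, which no factor per library can change. Quantile normalization, which changes values by rank within a library, can change them. The 6 pairs were compared in 3 comparisons by a two-sided exact permutation test, which takes every way of dividing the 12 libraries into 2 groups of 6 (smallest possible p 0.00216), with p-values adjusted over the 18 tests. Desmin rose against each of the other genes after doxorubicin, with 3 of 3 of its ratios past the threshold in both comparisons with saline. These 3 ratios share the Des values, so they are not 3 separate results. In DOX+saline against saline, 63.8% of genes with a mean of at least 1000 TPM were called lower, and Des lay at the median of all genes. How often ratios of other genes passed, or did not overlap, was not computed. After quantile normalization, tried after seeing the data, desmin per actin no longer passed in either comparison, while desmin per either troponin did. Troponin I fell against troponin T and against actin in DOX+AICAR. In DOX+saline these ratios missed the threshold on TPM as deposited. They passed it after quantile normalization (log2 changes -0.32 and -0.51, exact permutation, adjusted p = 0.00487 for both). That setting gave Actc1 the same value in all 6 saline libraries, so it replaces differences between animals by rank steps and cannot settle the miss. Between the doxorubicin groups neither of these ratios passed on TPM as deposited with all animals.

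Desmin per cardiac actin averaged 0.282 ± 0.0161 in saline hearts, 0.329 ± 0.00935 in those of DOX+saline and 0.356 ± 0.0201 in those of DOX+AICAR (SD, n = 6). The highest saline animal had 0.298 and the lowest of the 12 doxorubicin animals 0.321, so neither doxorubicin group overlapped saline. Among single genes, 32.2% of all genes tested did not overlap between DOX+saline and saline. Between DOX+AICAR and saline, 22.9% lay entirely higher and 11.6% entirely lower. The share for other ratios was not computed. The log2 change of desmin per actin was 0.23 in DOX+saline and 0.34 in DOX+AICAR (SE 0.04 and 0.05, exact permutation p = 0.00216 and adjusted p = 0.00557 for both). The call against saline held without any single animal and with animals 1 and 6 left out (0.21, exact permutation, adjusted p = 0.0143). It was lost with quantile normalization, where the log2 change was 0.07 in DOX+saline (exact permutation, adjusted p = 0.15) and 0.15 in DOX+AICAR (exact permutation, adjusted p = 0.0623). DOX+AICAR was above DOX+saline by 0.11 (SE 0.04, exact permutation p = 0.0173, adjusted p = 0.0346), with 0.329 to 0.383 against 0.321 to 0.347. That difference passed the threshold with animals 1 and 6 averaged (adjusted p = 0.026). It missed it with quantile normalization (0.08, adjusted p = 0.303) and in 8 of 12 tests that leave out 1 animal (DOX+saline 2, 3, 4 or 5, or DOX+AICAR 8, 9, 10 or 11), with adjusted p up to 0.0563.

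Desmin per troponin T rose from 0.301 ± 0.0267 to 0.368 ± 0.0307 in DOX+saline (log2 change 0.29, exact permutation p = 0.00649, adjusted p = 0.0146) and 0.405 ± 0.0386 in DOX+AICAR (0.43, exact permutation p = 0.00216, adjusted p = 0.00557) (SD, n = 6). Desmin per troponin I moved furthest of the 6 ratios, from 0.515 ± 0.0557 in saline to 0.713 ± 0.111 in DOX+saline and 0.799 ± 0.0767 in DOX+AICAR (SD, n = 6). These were rises of 1.38-fold and 1.55-fold with no overlap with saline (exact permutation p = 0.00216, adjusted p = 0.00557 for both). Between the doxorubicin groups neither ratio passed the threshold on all animals (exact permutation, adjusted p = 0.126 and 0.189). With animals 1 and 6 left out both passed (log2 change 0.21 and 0.30, exact permutation, adjusted p = 0.0429 and 0.0381), and with that pair averaged neither did (0.102 for both).

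Troponin I per troponin T averaged 0.587 ± 0.064 in saline hearts, 0.520 ± 0.0384 in those of DOX+saline and 0.508 ± 0.0106 in those of DOX+AICAR (SD, n = 6). The spread was narrow in DOX+AICAR, from 0.492 to 0.520, and wide in DOX+saline, from 0.473 to 0.568. DOX+AICAR lay entirely below saline, whose lowest animal had 0.545 (log2 change -0.20, SE 0.06, exact permutation p = 0.00216, adjusted p = 0.00557). DOX+saline overlapped saline and missed the threshold after adjustment (log2 change -0.17, SE 0.07, exact permutation p = 0.0325, adjusted p = 0.0584). Without DOX+saline animal 3 it passed (adjusted p = 0.0303). DOX+AICAR differed from DOX+saline by -0.03 (SE 0.05, exact permutation, adjusted p = 0.513). With animals 1 and 6 left out this difference was -0.09 and passed (exact permutation, adjusted p = 0.0429), and with them averaged it was -0.06 (adjusted p = 0.268).

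Troponin I per actin fell from 0.552 ± 0.0753 in saline to 0.447 ± 0.0232 in DOX+AICAR without overlap (SD, n = 6, log2 change -0.30, exact permutation p = 0.00216, adjusted p = 0.00557). It averaged 0.470 ± 0.0636 in DOX+saline (log2 change -0.24, exact permutation p = 0.0584, adjusted p = 0.0877). Troponin T per actin did not pass the threshold in any of the 3 comparisons on all animals (log2 changes -0.06, -0.09 and -0.03, exact permutation, adjusted p = 0.273, 0.0815 and 0.517). Saline animal 55, with a troponin I to actin ratio of 0.704, stood above the other saline animals (0.510 to 0.546). Without it the log2 change of Tnni3 itself was -0.30 in DOX+saline (limma adjusted p = 0.00414) and -0.34 in DOX+AICAR (limma adjusted p = 0.00219).

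**Figure D4:**
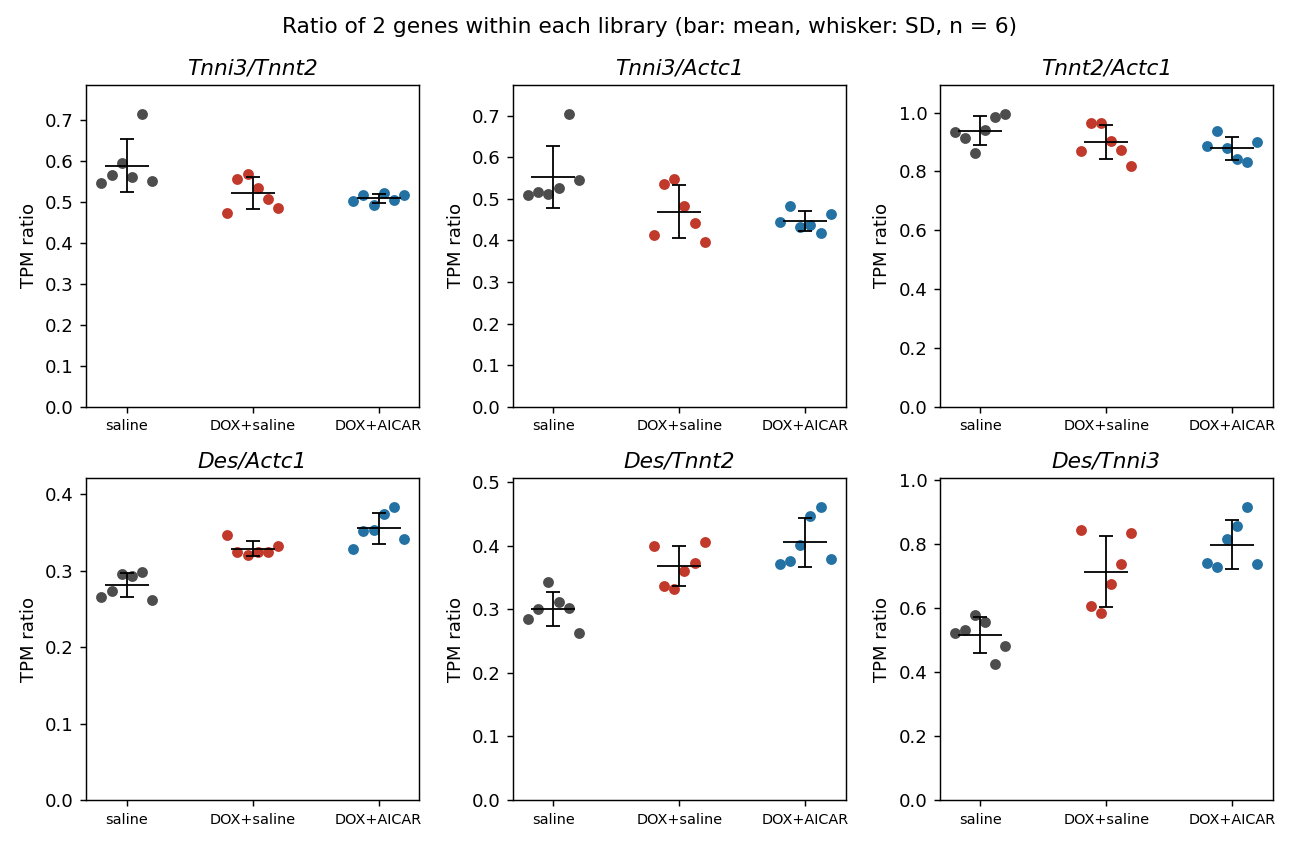
TPM ratio of 2 genes in each library for the 6 pairs, by group; points are animals, bars the mean and whiskers the SD (n = 6), each y axis from 0. Desmin per actin separates saline (at most 0.298) from all 12 doxorubicin animals (at least 0.321), while troponin T per actin overlaps in the 3 groups.

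How far the genes varied together from animal to animal was described by correlations of log2(TPM + 1) over the 18 libraries after subtracting each group's mean. These points share library scaling, so no p is given. Tnnt2 and Tnni3 had the highest r of the 6 pairs on all 18 libraries, 0.73, and with DOX+saline animals 1 and 6 left out it was 0.68, below the 0.71 of Tnnt2 and Actc1. Tnnt2 ranked 12 in likeness to Tnni3 among 1789 other genes with a mean of at least 100 TPM, and Tnni3 ranked 19 in likeness to Tnnt2. For Actc1 and Tnnt2 the ranks were 10 (Tnnt2 in likeness to Actc1) and 47 (Actc1 in likeness to Tnnt2). For Tnnt2 and Tnni3, r was 0.98 within DOX+saline and 0.96 within DOX+AICAR, beside 0.49 in saline, over 6 animals each. The saline value includes animal 55, which had 4803 TPM of Tnni3 and 6737 TPM of Tnnt2. Among the other saline animals Tnni3 rose with Tnnt2, from 3439 and 5789 TPM in animal 53 to 3999 and 7289 TPM in animal 56. The r without animal 55 was not computed. With DOX+saline animals 1 and 6 averaged, r of Tnnt2 and Tnni3 within DOX+saline was 0.98 over 5 samples, and with them left out 0.96 over 4. In DOX+saline animals 1, 5 and 6 had the lowest values of both genes (5565, 5662 and 5569 TPM of Tnnt2, and 2633, 2862 and 2703 TPM of Tnni3), and animals 2, 3 and 4 the highest. Actc1 and Tnnt2 had r = 0.62 over the 18 libraries, which was 0.80 within saline, 0.71 within DOX+AICAR and 0.06 within DOX+saline. Actc1 and Tnni3 had r = 0.15, which was -0.01 within saline, 0.68 within DOX+AICAR and -0.03 within DOX+saline. The saline value again includes animal 55, highest in Tnni3 but at 6825 TPM of Actc1, below the saline mean of 7178 TPM. It was not computed without that animal. Des and Actc1 had r = 0.43, which was 0.16 within saline, 0.69 within DOX+saline and 0.51 within DOX+AICAR. Des had r = -0.16 with Tnnt2 and -0.19 with Tnni3, which were -0.46 and -0.60 within DOX+saline, and 0.16 and -0.11 there with animals 1 and 6 left out. Over the 18 libraries the median r with all genes of at least 100 TPM was between -0.12 and 0.02 for the 4 genes. No such median was taken within single groups.

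**Figure D5:**
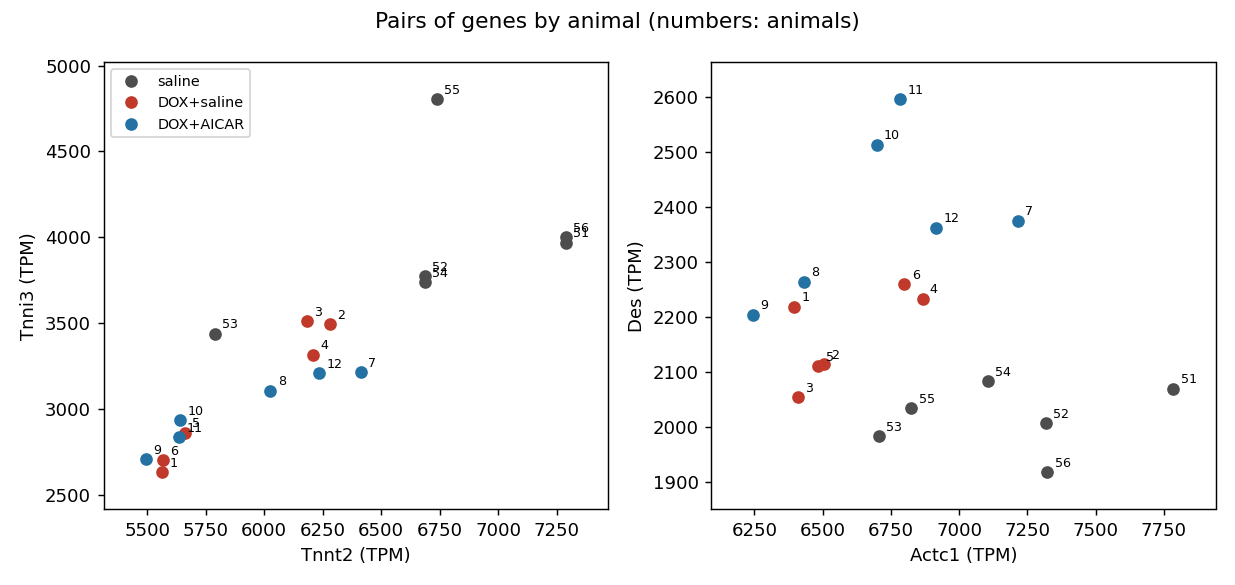
TPM of Tnni3 against Tnnt2 (left) and of Des against Actc1 (right) in each animal, coloured by group and numbered; axes do not start at 0. On the left the doxorubicin animals lie along 1 band at low values with saline animal 55 above it (4803 TPM of Tnni3); on the right the saline animals lie at the lower right.

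The spread between animals differed among the genes. In saline hearts the coefficient of variation was 3.01% for Des, 5.43% for Actc1, 8.15% for Tnnt2 and 11.7% for Tnni3. In DOX+saline it was 3.10% for Actc1, the smallest of the 4, and 13.0% for Tnni3. On the log2(TPM + 1) scale the SD of Actc1 in DOX+saline was 0.044, and 1.94% of all genes tested had a smaller one. In DOX+AICAR the 4 genes lay between 5.14% and 6.95%. The highest Tnni3 value was 1.40 times the lowest in saline, 1.33 times in DOX+saline and 1.19 times in DOX+AICAR. The saline spread of Tnni3 includes animal 55 at 4803 TPM, where the other saline animals had 3439 to 3999 TPM. Spread without that animal was not computed. Differences in spread were not tested.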

How the data were processed

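RNA of 18 rat hearts was measured, 1 library per animal, in 3 groups of 6 taken from the treatment labels. The submitters' processing notes name bcl2fastq 2.17.1.14 for base calls, HISAT2 for alignment, the build Rnor_6.0, and featureCounts of Subread 1.5.0. Annotation release, strand setting and TPM method: not given in the sources used here. The authors deposited TPM values, which sum to 1000000 in each library, so a change is a change of share. The reference table (47357 genes, GRCr8) matched 0 identifiers of the file, so 7 gene lists and the cell type markers fixed by symbol were not analysed here; promoters were matched to the 4 genes by symbol and come from RefSeq. The genes described are the 4 of the choice, whatever their change. The members, lists and tests were chosen with earlier results of these data known.

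Whole reads were recovered from the TPM steps for 25878 of 25878 genes above 0 (tolerance 0.001 reads; 6667 genes were at 0 throughout) and give depth and an alternative test. The 14732 genes that reached 1 TPM in 6 or more libraries were fitted with limma 3.58.1 (R 4.3.3) on log2(TPM + 1), a mean per group over all 18 libraries, with a mean-variance trend, two-sided, Benjamini-Hochberg over all genes, called at an adjusted p below 0.05. This scale hardly affects genes as abundant as these. The fit and the exact permutation test were tested on simulated or known values. Ratios used two-sided exact permutation tests on log2 TPM ratios (numpy 2.4.6). Alternatives were another pseudocount (0.1), 2 other filters (none, 5 TPM), 2 scalings, array weights, no trend, only the 12 libraries compared, voom on recovered reads and each animal left out. Ratios were also taken with 1 TPM added to each term and from recovered reads, which by construction leave them almost as they were. Averaging or leaving out DOX+saline animals 1 and 6, and quantile normalization before the ratios, were chosen after seeing the data. The labels name the animals singly but do not say how they were housed or processed in batches.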

Additional observations from a re-analysis of the deposited data

Results flagged for a closer look

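Among 33 groups of 6 values (4 genes, 6 ratios and their sum in 3 groups), 2 held an animal far from the other 5, where chance picks about 1 in 20, or 1.65 here. Saline animal 55 had a troponin I to troponin T ratio of 0.713, and the other saline animals 0.545 to 0.594. The same animal had a troponin I to actin ratio of 0.704, and the others 0.510 to 0.546. Its Tnni3 value was the highest of its group at 4803 TPM, while its Tnnt2 value of 6737 TPM lay within the range of the other saline animals. The 2 ratios share that value and are 1 observation. Without this animal the troponin I to troponin T ratio differed from saline by -0.11 in DOX+saline (exact permutation, adjusted p = 0.121) and by -0.15 in DOX+AICAR (adjusted p = 0.00779) on the log2 scale.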

How the results depend on the processing

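Tnni3 against saline and Des in DOX+AICAR against saline kept direction and call under all alternatives run. No paired analysis was possible because no animal number is shared between groups. For DOX+saline against saline, log2 changes that lost the call without a low-value filter were -0.188 (Tnnt2), -0.125 (Actc1) and 0.102 (Des). Quantile normalization gave -0.092 (Tnnt2) and 0.096 (Actc1), median-of-ratios factors -0.020 (Des) and no trend 0.102 (Des). With DOX+saline animals 1 and 6 left out Tnnt2 was -0.146 and Des 0.078, and with them averaged Des was 0.093. Leaving out 1 animal gave -0.144 to -0.101 for Actc1 and 0.088 to 0.117 for Des. For DOX+AICAR against saline, Tnnt2 was -0.190 without the filter and -0.067 with quantile normalization. Actc1 was -0.096 (5 TPM filter), -0.209 (median-of-ratios), 0.128 (quantile), -0.100 (array weights) and -0.108 (voom), and -0.117 to -0.072 leaving out 1 animal. For DOX+AICAR against DOX+saline, Tnnt2 was 0.007 (median-of-ratios), 0.025 (quantile), 0.030 (array weights) and -0.026 to 0.019 leaving out 1 animal, and Tnni3 0.058 (array weights) and -0.077 to 0.006, none of them called. All genes called in that comparison numbered 196, and 321 with quantile normalization, 16 with only the 12 libraries, 1058 with array weights, 44 with animals 1 and 6 averaged and 36 to 461 leaving out 1 animal. Ratios past the threshold numbered 3 in DOX+saline against saline (3 to 5 leaving out 1 animal), and 1 in DOX+AICAR against DOX+saline (0 to 1, 4 with animals 1 and 6 left out and 0 with quantile normalization). The summed TPM of the 4 genes differed from saline by -2154 in DOX+saline and -1884 in DOX+AICAR, and by -3800 and -3427 with median-of-ratios factors. That scaling made 48.0% of calls higher in DOX+saline and 47.4% in DOX+AICAR, and quantile normalization 41.0% and 40.5%, against 65.5% and 65.4% as deposited. The causes were not tested. Counting error was at most 0.603% for these genes, and no alternative varied depth.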
